A study of Mus musculus with 5480 samples.

Results

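The 10 genes described here encode proteins of the contractile apparatus of smooth muscle: Acta2, Actg2, Tagln, Myh11, Cnn1, Des, Actc1, Lmod1, Smtn and Synpo2. They were taken by name from the 18072 genes of a table of read counts, and all 10 were present. No measured value served as a filter, but the members were chosen with earlier results of these data known. The table held 5480 single mesenchymal cells sorted from the distal lung of 10 mice and sequenced cell by cell. Each group held 1 female and 1 male: embryonic day 18.5 (E18.5), postnatal days 1, 7 and 21 (P1, P7 and P21) under normal conditions, and P7 in hyperoxia, which is breathing of oxygen-enriched air. The labels used here name no strain, allele, oxygen level or length of exposure. The sort gave 5409 cells by the mesenchymal gate, 69 by a CD31 gate and 2 by a CD45 gate. Each cell carried 1 of 16 subtype labels assigned by the submitters.

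Smooth muscle shortens when myosin filaments pull on actin filaments. Acta2 (alpha smooth muscle actin) and Actg2 (gamma enteric smooth muscle actin) encode the actins of smooth muscle, Actc1 encodes the actin of heart muscle, and Myh11 encodes the heavy chain of smooth muscle myosin. Tagln (transgelin), Cnn1 (calponin) and Smtn (smoothelin) bind actin filaments, Lmod1 (leiomodin) starts new ones, Des (desmin) is an intermediate filament of muscle, and Synpo2 (synaptopodin-2, also called myopodin) links actin to attachment sites. In the lung these genes mark the muscle around airways and vessels, and Acta2 also marks the myofibroblasts that appear while air spaces divide. Many of them are known targets of serum response factor, which binds the CArG box, and of its partner myocardin.

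The CArG stretches upstream of the members are shown because this box is the known shared element of smooth muscle genes. RefSeq promoters of build GRCm38.p6 were at hand for 7 of the 10 genes; Actg2, Tagln and Myh11 had no entry. The 250 bases before each transcript start were searched for the box, which reads as a pair of C, then 6 bases that are each A or T, then a pair of G, with at most 1 mismatch. Its form is the same on both strands, so a match on 1 strand is a match on the other. Each stretch below is 30 bases long, 5′ to 3′ on the gene's own strand, with the 10 matching bases in capitals and their first base counted from the start site.
Acta2, first base -84, chr19:34255438-34255467, minus strand: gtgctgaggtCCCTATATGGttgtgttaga
Acta2, first base -34, chr19:34255388-34255417, minus strand: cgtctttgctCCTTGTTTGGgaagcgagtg
Actc1, first base -175, chr2:114053031-114053060, minus strand: ctccctagctCCCTATATGGccattgctct
Actc1, first base -138, chr2:114052994-114053023, minus strand: ccctccccttCCTTACATGGtctgggagcc
Actc1, first base -87, chr2:114052943-114052972, minus strand: gcccttggctCCAAGAATGGcctcagcggt
Actc1, first base -47, chr2:114052903-114052932, minus strand: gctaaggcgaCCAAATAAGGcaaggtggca
Lmod1, first base -189, chr1:135324614-135324643, plus strand: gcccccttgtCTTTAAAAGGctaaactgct
Lmod1, first base -164, chr1:135324639-135324668, plus strand: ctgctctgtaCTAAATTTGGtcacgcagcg
Only the Actc1 match at -47 had no mismatch. Acta2 and Actc1 shared the same 10 letters, CCCTATATGG. Cnn1, Des, Smtn and Synpo2 had no match in this window, which says only that these letters are not there. Of 32851 promoters in the table searched in the same way, 18.6% held at least 1 match, 2.96% held 2 or more, as Acta2, Actc1 and Lmod1 did, and 1.47% held a match without mismatch. A match is a description of letters and no evidence of binding.

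The 10 mice gave 311 to 633 cells and 294154721 to 671766116 reads each, with a median of 774305 reads per cell (39358 to 5177020). Levels are read counts scaled to a common library total (CPM, the usual unit), from reads summed over the cells of 1 mouse and label, and labels enter with at least 10 cells in a mouse. Reads are not molecules, since the labels name no molecular identifiers. The coding sequences of Acta2, Actg2 and Actc1 are close, and the counting rule for shared reads is not given in the sources used here, so their values are uncertain where reads could be assigned to either. The labels had been assigned from the expression of these same cells, so the levels by label are a description with no test.

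Vascular smooth muscle and early airway smooth muscle carried most of the 10 genes at their highest levels. Acta2, Tagln, Myh11 and Lmod1 had their highest median in vascular smooth muscle, Actg2 and Cnn1 in early airway smooth muscle, Actc1, Des and Synpo2 in the striated muscle label, and Smtn in pericytes. In all, the 10 genes took 1.43% to 3.01% of the reads of a vascular smooth muscle library and 1.56% to 2.37% of those of early airway smooth muscle. Myofibroblasts gave 0.644% to 1.47%, and the airway smooth muscle label of P21 gave 0.261% and 0.291%. Per kilobase of exon, the order within vascular smooth muscle ran from Acta2 with a median of 8052 CPM per kilobase, through Actg2 with 1332 and Actc1 with 1131, down to Synpo2 with 5.79.

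**Figure D1:**
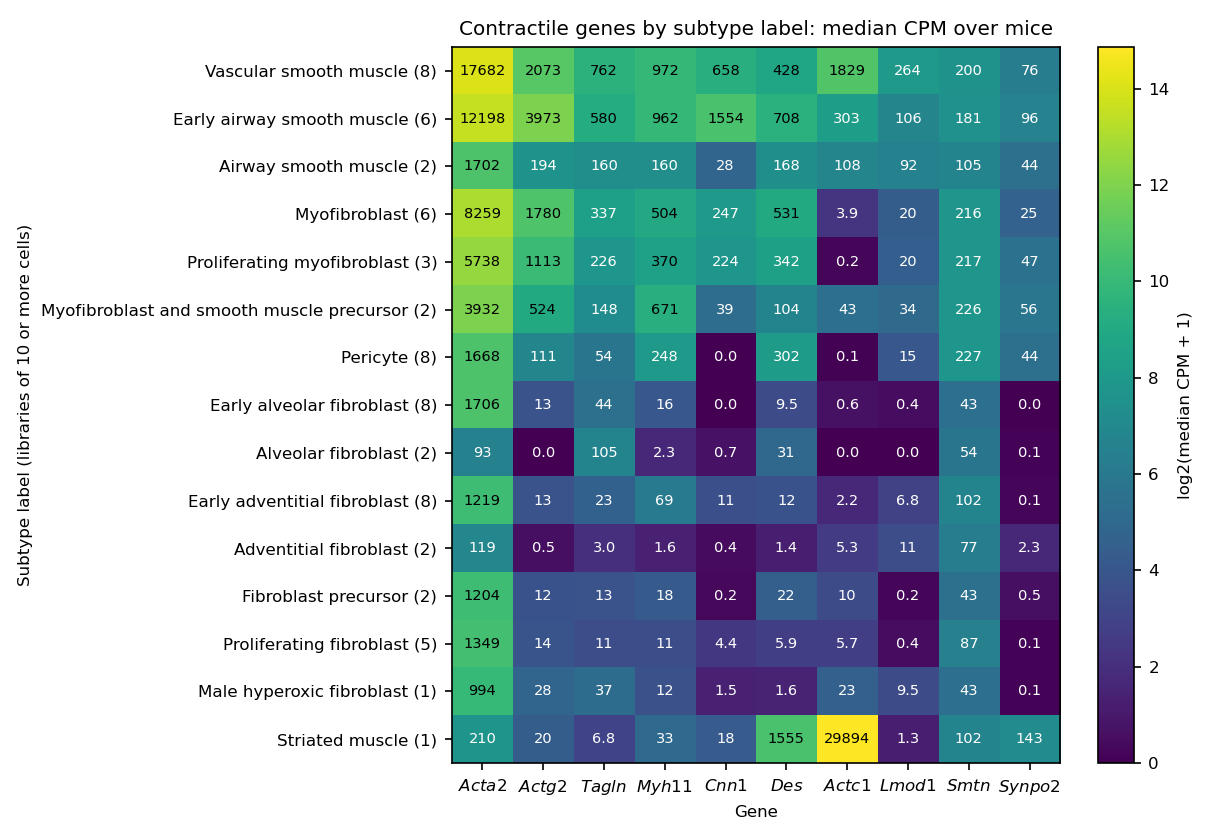
Median level of each of the 10 genes (columns) in each subtype label (rows), as the median CPM over mouse libraries of at least 10 cells, on a log color scale; the number of libraries stands beside each label. Acta2 runs from 17682 CPM in vascular smooth muscle and 12198 in early airway smooth muscle down to 1668 in pericytes, whereas Smtn spans 200 to 227 CPM across vascular smooth muscle, myofibroblasts, their precursors and pericytes.

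Among the actins, Acta2 had a median of 17682 CPM in vascular smooth muscle over 8 libraries (10384 to 22345). In early airway smooth muscle the median was 12198 over 6 libraries (9646 to 12766), and in myofibroblasts 8259 over 6 (4124 to 10333). The ranges of these neighbours overlapped. Proliferating myofibroblasts and, below them, the myofibroblast and smooth muscle precursors followed, with ranges that lay apart from each other. Actg2 ran in the other order of muscles, with 3973 CPM in early airway (2215 to 5425) against 2073 in vascular smooth muscle (918 to 2818) and 1780 in myofibroblasts. Actc1 reached 29894 CPM in the striated muscle label, which entered with 1 library. It was next highest in vascular smooth muscle, at 1829 (1014 to 2880), and then in early airway smooth muscle, at 303 (234 to 1240). All neighbouring ranges of Actg2 named here overlapped, and so did those of Actc1 between both smooth muscles.

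Of the filament-binding genes, Cnn1 separated labels most sharply. Its median was 1554 CPM in early airway smooth muscle (994 to 2167), 658 in vascular smooth muscle (73.3 to 1064) and 247 in myofibroblasts (59.9 to 351). In pericytes Cnn1 had no read in 7 of the 8 libraries and 3 reads in the other. In both smooth muscles Tagln followed the order of Acta2 at lower levels, with 762 CPM in vascular and 580 in early airway smooth muscle. In alveolar fibroblasts it did not follow Acta2, as given below. Smtn differed little among the labels with high levels: pericytes had 227 CPM (114 to 348), myofibroblasts 216 (163 to 245), vascular smooth muscle 200 (121 to 255) and early airway smooth muscle 181 (124 to 299), with overlapping ranges. Below them, Smtn was at 43.3 CPM in fibroblast precursors (37.0 to 49.6) and 42.6 in early alveolar fibroblasts (0 to 60.9), whose ranges lay apart from those 4. Myh11, the myosin, was level between both smooth muscles, at 972 CPM in vascular and 962 in early airway, and reached 671 in the precursors and 504 in myofibroblasts. Lmod1 was the member whose vascular range, 210 to 432 CPM around 264, lay entirely above the early airway range of 86.4 to 159. Des had 708 CPM in early airway smooth muscle, 531 in myofibroblasts, 428 in vascular smooth muscle and 302 in pericytes.

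The same 6 mice gave both an early airway and a vascular library, so the muscles could be set side by side within mice. Lmod1 was higher in vascular smooth muscle in 6 of 6 mice, with log2 ratios of vascular to airway of 0.71 to 1.94 and a median of 1.32. Actg2, Cnn1 and Des were higher in early airway smooth muscle in 6 of 6, with median log2 ratios of -0.73, -1.09 and -0.62. Acta2 and Tagln were higher in vascular smooth muscle in 5 of 6 mice, the exception for both being the P1 male, with log2 ratios of -0.28 and -0.72. The P1 male also had the lowest vascular Cnn1, 73.3 CPM against 490 to 1064 in the other vascular libraries. The vascular label held too few cells to enter at E18.5 (7 in the female, 9 in the male), and those cells had 5441 and 7321 CPM of Acta2 and 0 and 18.8 CPM of Cnn1.

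Cell by cell, early airway and vascular smooth muscle had the most members detected. Cells were thinned to a common depth of 100000 reads, and 168 shallower cells were not used. An early airway smooth muscle cell had a median of 8 of the 10 genes and a vascular smooth muscle cell 7. At least 8 genes were found in 52.1% of early airway and 40.1% of vascular cells, and in 10.6% of myofibroblasts. The median was 6 in myofibroblasts and in proliferating myofibroblasts, 5 in their precursors, 3 in pericytes and in the airway smooth muscle label of P21, and 1 in the alveolar and the adventitial fibroblasts of P21. Detection differed by gene. Cnn1 was found in 89.0% of early airway cells, 49.5% of vascular cells and 0 of 275 pericytes. For the pericytes the 95% Wilson interval reaches 1.38%, which covers counting error only and pools cells of several mice, and 1.07% of the pericytes had a Cnn1 read without thinning. Actc1 was found in 17.4%, 50.0% and 1.1%. In vascular smooth muscle, then, about as many cells had a read of Actc1 as of Cnn1. Without thinning, the share with an Acta2 read was 98.5% in vascular cells and 42.0% in pericytes, against 98.4% and 40.7% thinned. For Actc1 the share without thinning was 47.9% in early airway cells and 59.7% in vascular cells, so the gap in its detection depends on depth.

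**Figure D2:**
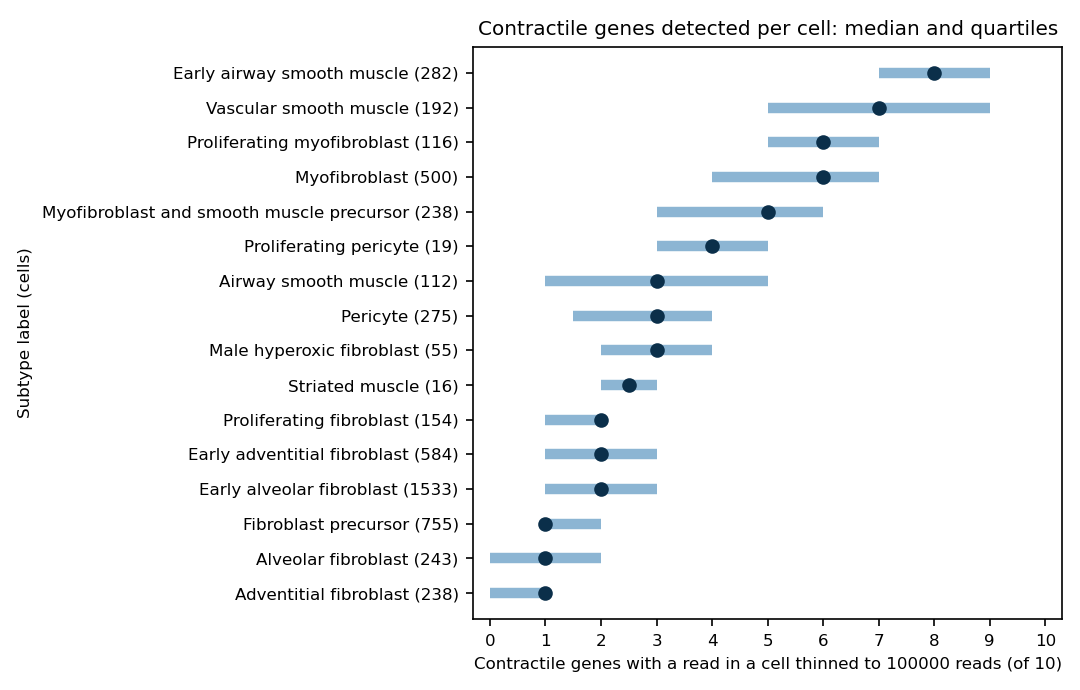
Number of the 10 genes detected per cell after thinning to 100000 reads (x axis) for each subtype label (y axis); points are medians and bars span the quartiles. Early airway smooth muscle has a median of 8 and vascular smooth muscle 7, while alveolar and adventitial fibroblasts of P21 have 1.

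Within a label, cells with more of a given member had more of the others to a modest degree. The median Pearson correlation of the member pairs across cells was 0.25 in vascular smooth muscle (192 cells), 0.25 in the airway smooth muscle label (112 cells), 0.23 in early airway smooth muscle (282 cells) and 0.08 in pericytes (275 cells). In early airway smooth muscle Acta2 was the shared partner of the closest pairs, with Actg2 (0.59), Cnn1 (0.56), Myh11 (0.52) and Tagln (0.52). In vascular smooth muscle the closest were Acta2 with Actg2 (0.54) and Cnn1 with Actc1 (0.51), and in the airway label of P21 Cnn1 with Actc1 (0.54). Smtn with Actc1 was near 0 in early airway cells (-0.05). Cells of a label come from the same few mice, and noise from sparse reads lowers such values.

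Reads of Actc1 were concentrated in few cells of the early airways and spread over more cells of the vessels. In airway smooth muscle at P7, the top 4 of 75 cells of the female held 99.5% of the Actc1 reads and the top 3 of 64 cells of the male 95.7%, with single cells up to 20080 and 70944 CPM. In vascular smooth muscle at P7, 16 of 27 and 23 of 31 cells had an Actc1 read, and the top cell or 2 cells held 24.3% and 35.3% of the reads. The airway level of Actc1 was thus that of few cells in these 2 mice.

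The genes whose levels ran most like those of the members were found over 64 libraries and 12297 other genes, by Pearson correlation of log2(CPM + 1); libraries share mice, runs and labels. Acta2 was closest to Tpm2 (0.91), a tropomyosin, to Myl6 (0.90), a myosin light chain, and to Pdlim7 (0.82). Cnn1 was closest to Myocd (0.88), which encodes myocardin, to Ramp1 (0.88) and to Sntg2 (0.88). Myh11 was nearest to P2ry14 (0.84), Myl9 (0.83) and Lmcd1 (0.81), and Des to Rrad (0.85), Lmcd1 (0.84) and P2ry14 (0.83). Actc1 stood with genes of striated muscle such as Myom1 (0.86) beside Pcp4l1 (0.86) and Sh3bgr (0.86). Actg2 was nearest to Tpm2 (0.85), Ramp1 (0.84) and Myocd (0.83), and Tagln to Ramp1 (0.80), Dstn (0.79) and Mustn1 (0.78). For Smtn the nearest genes were Ckb (0.84), Wdr1 (0.80) and Filip1l (0.79), for Synpo2 they were Ehd4 (0.84), Rrad (0.83) and Lmcd1 (0.82), and for Lmod1 they were Ramp1 (0.81), Tspan2 (0.78) and Dusp8 (0.78). Among the members, Acta2 with Actg2 (0.88) and Des with Synpo2 (0.86) were the closest pairs, and Smtn with Actc1 (0.25) the farthest.

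Ages and hyperoxia were compared over mice, with reads summed per mouse and class of cells, in 18 comparisons over 6 classes and 4 tests of a difference between classes. The test was edgeR's quasi-likelihood test, two-sided, with a term for sex, and p-values were adjusted by Benjamini-Hochberg over all genes tested, with a threshold of 0.05. Levels in these comparisons are CPM of TMM-scaled libraries. With 2 mice per group, the p-values measure only the spread between these mice. A summed level cannot tell fewer cells with the transcript from less transcript per cell, so shares of cells are given where the sums changed. Of 177 tests of a member, 6 passed, all of them falls from P7 to P21, in airway smooth muscle, pericytes and adventitial fibroblasts. The other 28 contractile genes that were followed as a group, among them tropomyosins, myosin light chains and filamin, gave 0 that passed in any of the 22 tests. From P7 to P21 their median log2 change was -0.86 in airway smooth muscle, -0.51 in pericytes and -0.34 in adventitial fibroblasts. It was -0.09 in vascular smooth muscle and 0.08 in alveolar fibroblasts. For all genes tested the medians were -0.09, 0.20, 0.10, -0.09 and -0.04 in the same order.

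**Figure D3:**
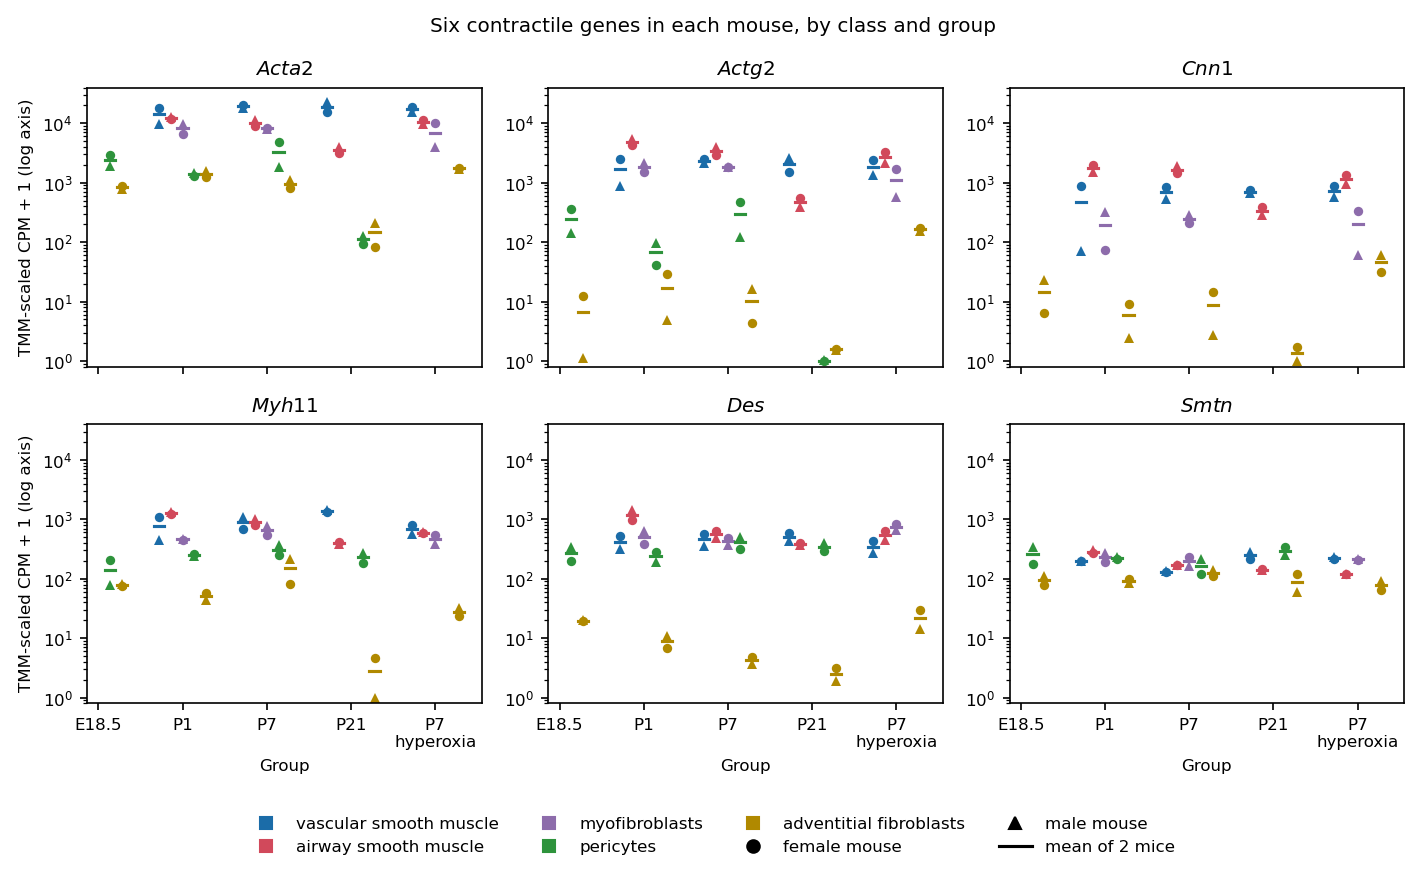
TMM-scaled CPM + 1 (log y axis) of Acta2, Actg2, Cnn1, Myh11, Des and Smtn in each mouse, by age and treatment (x axis) and class of cells; each point is 1 mouse, female or male. Vascular smooth muscle keeps Acta2 between 9875 and 22689 CPM, while pericytes at P21 sit at 92.5 and 128 CPM, below every other pericyte library.

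In airway smooth muscle, with the early and the later label joined, Acta2, Actg2 and Cnn1 fell from P7 to P21. Acta2 was at 8855 CPM in the female and 11280 in the male at P7, and at 3109 and 3968 at P21. Actg2 went from 2921 and 3977 to 544 and 383. Cnn1 went from 1451 and 1875 to 395 and 281. For all 3 genes both mice of P21 lay below both mice of P7. The log2 changes in edgeR's test were -1.51 for Acta2 (SE 0.23, adjusted p = 0.0168), -2.91 for Actg2 (SE 0.34, adjusted p = 0.00559) and -2.34 for Cnn1 (SE 0.32, adjusted p = 0.0107). By sex, the log2 changes were -1.51 and -1.51 (female, male) for Acta2, -2.42 and -3.38 for Actg2 and -1.88 and -2.74 for Cnn1, and among cells of the mesenchymal gate only the male libraries of these ages shared a sequencing run. In this comparison 3 of 10 members were lower, beside 0.482% of all genes tested (1.29% in either direction). The median log2 change of the members was -0.52, beside -0.09 for all genes. Myh11 went from 810 and 994 to 411 and 382 CPM and did not pass (-1.18, adjusted p = 0.10). It passed by DESeq2 (adjusted p = 0.0059) and in edgeR's test with scaling by total reads (adjusted p = 0.041). With equal weight per cell, tested by limma, Myh11 passed too (adjusted p = 0.016). Des, Tagln, Smtn and Synpo2 had changes of -0.55 to -0.25, Lmod1 0.25 and Actc1 0.54, and none of them passed. Without the P7 male, 1 of the 3 calls was left, that of Actg2 (Acta2 adjusted p = 0.196, Cnn1 0.098), and Acta2 was also lost without the P7 female or the P21 female and Cnn1 without the P21 male.

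The fall in airway muscle went with the change of label. At P21, 113 cells had the later airway label and 6 still had the early one, of which 4 came from the female (1 of them from the CD31 sort) and 2 from the male. These 6 cells had 5128 to 31817 CPM of Acta2, 632 to 12186 of Cnn1, 582 to 6143 of Actg2 and 2604 to 36621 of Actc1. They held 5.66% of the reads of the class in the female and 7.02% in the male, but 93.3% and 86.7% of its Cnn1 reads, 88.2% and 93.4% of Actc1 and 49.1% and 43.7% of Acta2. In the cells of the later label, Cnn1 was at 23.6 and 33.2 CPM, Actg2 at 243 and 146, and Acta2 at 1415 and 1989. After thinning, Cnn1 was found in 6.9% and 7.4% of those cells and Actg2 in 32.8% and 29.6%. In the early label at P7 Cnn1 was found in 90.7% and 87.3% of cells, and Actg2 in 98.7% and 98.4%. Acta2 was found in 72.3% of the thinned cells of the later label and 100% of those of the early label, pooled over mice and ages.

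**Figure D4:**
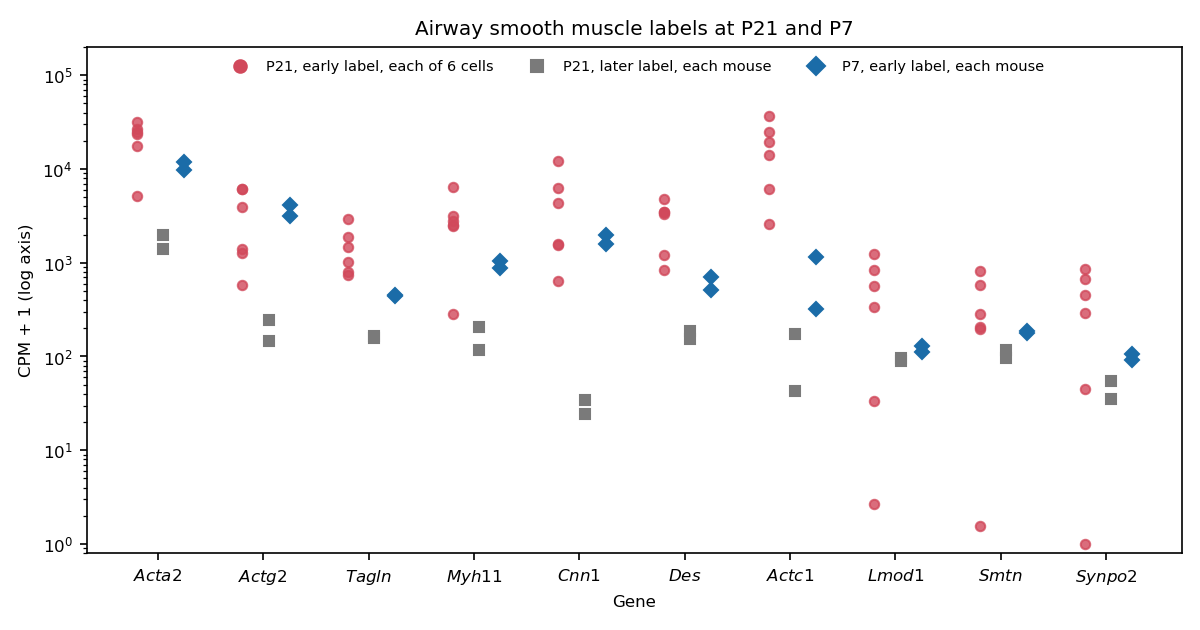
CPM + 1 (log axis) of each of the 10 genes in the 6 cells of P21 that carry the early airway smooth muscle label (single cells), beside the summed level of the later label at P21 and of the early label at P7 in each mouse. Cnn1 is 632 to 12186 CPM in the 6 cells, and 23.6 and 33.2 CPM in the later label.

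With 1 label per age, an alternative added after the data were seen, Cnn1, Actg2, Acta2 and Myh11 passed as lower in airway muscle from P7 to P21 in edgeR's test. The share of all genes called in this setting is not given here, so these calls have no background beside them. Cnn1 then changed by -5.57 (adjusted p = 0.001), Actg2 by -3.88 (adjusted p = 0.0028), Acta2 by -2.27 (adjusted p = 0.0039) and Myh11 by -2.21 (adjusted p = 0.018). This setting leaves out the 6 cells of P21 with the early label, and the labels came from the expression of these same cells. Its larger falls therefore depend on the split by label and are no independent support. The later label was checked against marker lists. Its cells had 3771 and 4468 CPM of a list of 7 fibroblast genes, led by Col1a1, Dcn and Col1a2, and 853 and 707 CPM of 8 pericyte genes, with the pericyte gene Higd1b at 0. The early airway label had 5756 and 4928 CPM of the fibroblast list at P7, and 963 and 1042 of the pericyte list, with Higd1b at 0 as well. Single genes of these lists went against the sums. Dcn (decorin, a matrix proteoglycan) was at 956 and 1282 CPM in the later label and at 0.233 and 7.35 in the early label at P7. Pdgfrb was at 94.1 and 81.5 against 40.6 and 11.7, and Abcc9 at 262 and 197 against 42.2 and 83.4. Other genes went with the sums. Rgs5 was at 30.9 and 28.5 in the later label against 212 and 273, and Kcnj8 at 424 and 380 against 615 and 605. Cspg4, Notch3, Col1a1 and Col1a2 were lower in the later label too. The part of these genes in the lower contractile levels was not tested. All 10 members were above 10 CPM in the later label, at a sum of 2611 and 2912 CPM, against 17159 and 21510 in the early label at P7.

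In pericytes, the cells that wrap capillaries, Acta2 and Actg2 fell from P7 to P21, and the other members did not pass. Acta2 was at 4827 CPM in the female and 1830 in the male at P7, and at 92.5 and 128 at P21, so that the groups did not overlap. Its log2 change was -4.81 (SE 0.55, adjusted p = 0.00393 in edgeR's test). The share of pericytes with no read of Acta2 rose from 23.1% and 19.4% of 26 and 31 cells at P7 to 82.9% and 85.3% of 70 and 75 cells at P21. At P7 the median cell had 2281 and 1612 CPM. By sex, the log2 change was -5.71 in the females and -3.84 in the males, whose cells of the mesenchymal gate share a run. Without the P21 female the adjusted p of Acta2 was 0.212, and without the P21 male 0.0893.

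The Actg2 fall in pericytes also passed (adjusted p = 0.00393 in edgeR's test), from 9078 and 3277 reads at P7 to 0 and 2 reads at P21. Its fitted fold change is no bound because of these counts. The ratio of P7 to P21 over all reads of the class was 14962. Its 95% exact interval, 4141 to 123563, treats each read, pooled over mice, as an independent count. Reads are not molecules and here came from few cells. The interval therefore leaves out the spread over cells and mice and is no bound on the ratio. The P7 level of the female was that of a single cell. Of its 26 pericytes, 3 had an Actg2 read, and 1 of them held 99.5% of the reads, at 2786 CPM. That cell, singled out after its values were seen, also had 11858 CPM of Acta2 and 0 of Cnn1. Without it the female's pericytes at P7 had 2.67 CPM of Actg2 in place of 452, whereas Acta2 was 3314 in place of 4694, Myh11 199 in place of 245 and Des 309 in place of 310. These are levels over total reads, with no test. In the male at P7, 8 of 31 cells had an Actg2 read. Without the P21 female the adjusted p of Actg2 was 0.226, and without the P21 male 0.0984.

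The other members of pericytes went in both directions. Tagln was at 114 and 71.3 CPM at P7 and 25.1 and 34.0 at P21, lower in both mice of P21 than in both of P7, and did not pass (-1.60, SE 1.11, adjusted p = 0.94). Des was at 319 and 500 CPM at P7 and 289 and 393 at P21 (log2 change -0.25, SE 0.55), Myh11 at 252 and 363 and then 180 and 274 (-0.44, SE 0.65), and Smtn at 117 and 213 and then 341 and 254 (0.93, SE 0.62). Synpo2 went from 10.8 and 3.50 CPM to 193 and 114, groups that did not overlap, yet it did not pass in edgeR's test (4.46, SE 1.38, adjusted p = 0.82). DESeq2 called Synpo2 (4.41, adjusted p = 0.0057). Lmod1 was at 0.0512 and 11.0 CPM and then 19.2 and 20.3, and Actc1 had 3 and 81 reads at P7 and 0 in both mice of P21. So 2 of 9 members tested were lower, beside 0.0336% of all genes tested (0.0504% in either direction). Cnn1 was not tested for lack of reads. The pericyte markers, summed over 8 genes, were at 6047 and 7387 CPM at P7 and 7378 and 7785 at P21, and the 10 members together at 5936 and 3224 and then 1161 and 1142. From E18.5 to P1, 0 of 9 members passed in edgeR's test, beside 0.042% of genes, with 0 at an unadjusted p under 0.05 and 0 by DESeq2, and the log2 changes of the 8 members with more than 3 reads in each library ran from -4.17 (Lmod1) to 1.46 (Synpo2). Over those ages Acta2 was at 2911 and 1919 CPM at E18.5 and 1302 and 1483 at P1, and Synpo2 at P1 was at 85.7 and 49.4 CPM, above both P7 values.

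**Figure D5:**
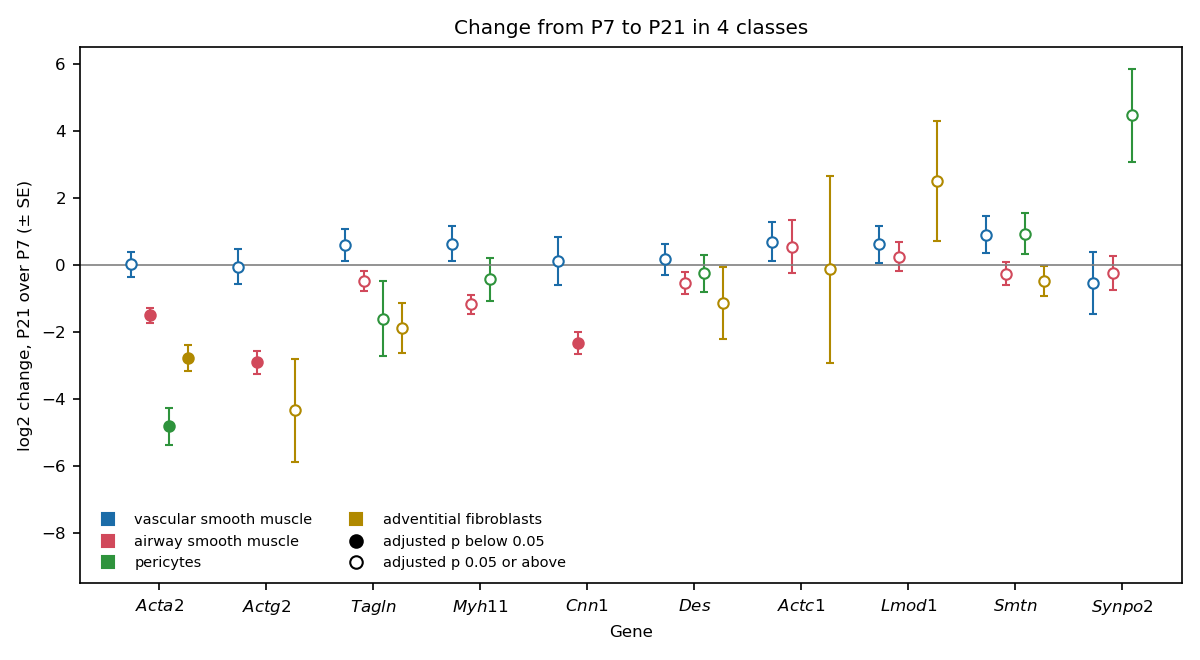
Log2 change from P7 to P21 of each of the 10 genes (x axis) in vascular smooth muscle, airway smooth muscle, pericytes and adventitial fibroblasts; points are edgeR estimates and bars their standard errors, and points with 3 or fewer reads in a library are left out. Acta2 is at 0.01 in vascular smooth muscle, -1.51 in airway smooth muscle, -2.78 in adventitial fibroblasts and -4.81 in pericytes.

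In vascular smooth muscle no member passed over the same days. Acta2 was at 20325 and 18061 CPM at P7 and 15403 and 22689 at P21, and its log2 change was 0.01 (SE 0.38). In edgeR's test 0 of 10 members passed, beside 0.0886% of all genes tested, 0 members had an unadjusted p under 0.05, and DESeq2 also called 0. Cnn1 was at 856 and 535 CPM and then 739 and 665 (0.12, SE 0.71), and Actg2 at 2472 and 2133 and then 1541 and 2649 (-0.06, SE 0.52). Myh11 was at 680 and 1099 and then 1348 and 1456 (0.63, SE 0.51), and Smtn at 129 and 132 and then 211 and 279 (0.90, SE 0.55). The other members had log2 changes of -0.54 (Synpo2), 0.16 (Des), 0.58 (Tagln), 0.62 (Lmod1) and 0.69 (Actc1).

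The differences between classes were tested themselves, with the mouse as a block. The change of Acta2 was lower in pericytes than in vascular smooth muscle by 4.62 on the log2 scale (log2 difference -4.62, SE 0.45, adjusted p = 0.0212), and that of Actg2 was lower too (adjusted p = 0.0111), in edgeR's test. That is 2 of 10 members, beside 0.016% of genes with a lower change (0.0319% in either direction). Neither difference passed when either P21 mouse was left out (adjusted p = 0.319 to 0.780). Between airway and vascular smooth muscle 0 of 10 members passed, beside 0.0303% of genes. There 4 members had an unadjusted p under 0.05, the differences being -1.40 for Acta2 (SE 0.26, adjusted p = 0.38), -2.64 for Actg2 (SE 0.51, adjusted p = 0.45), -2.28 for Cnn1 (SE 0.51, adjusted p = 0.60) and -1.80 for Myh11 (SE 0.41, adjusted p = 0.61). The falls in airway muscle are therefore not shown to differ from the vascular values. With 1 label per age, 0 members passed as well (adjusted p = 0.074 for Acta2 and 0.055 for Cnn1).

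Fibroblasts also had reads of Acta2, at lower levels at P21 than at P7, and the fall passed in adventitial fibroblasts only. In adventitial fibroblasts Acta2 went from 800 and 1130 CPM at P7 to 81.1 and 212 at P21 (log2 change -2.78, SE 0.39, adjusted p = 0.0315 in edgeR's test), with groups that did not overlap (-3.30 in the females and -2.42 in the males). It was 1 of 10 members, beside 0.0654% of genes that were lower (0.157% in either direction), and was lost without either P7 mouse (adjusted p = 0.112 and 0.177) or the P21 female (0.0776). The other members with more than 3 reads in each library had log2 changes from -4.35 (Actg2) to 2.51 (Lmod1), and DESeq2 also called Actg2, Cnn1 and Myh11. After thinning, Acta2 was found in 65.8% of cells of the early adventitial label and 19.7% of the later one, pooled over mice and ages. In alveolar fibroblasts Acta2 went from 1256 and 1290 to 62.6 and 212 CPM and did not pass (-3.24, SE 0.64, adjusted p = 0.25). There 0 of 10 members passed in edgeR's test, beside 0.0511% of genes, 2 members had an unadjusted p under 0.05, and DESeq2 called 2. Without either E18.5 mouse, edgeR called Acta2 and Actg2 there (adjusted p = 0.015 to 0.038). Tagln did not follow Acta2: it was at 31.4 and 33.3 CPM at P7 and 91.5 and 161 at P21, and was found in 54.7% of the thinned alveolar fibroblasts of P21, where Acta2 was found in 11.9%. Des and Smtn had log2 changes of 3.32 (SE 1.77) and 0.59 (SE 1.78), and the other 6 members had 3 or fewer reads in at least 1 library.

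Before P7 no member passed. In edgeR's test 0 members passed from P1 to P7 in any of the 6 classes, beside 0% of genes in each, and 0 of 10 passed from E18.5 to P1 in adventitial fibroblasts, beside 0.19%. At an unadjusted p under 0.05 stood 2 members in airway smooth muscle, Des (988 and 1418 to 639 and 490 CPM) and Tagln (631 and 742 to 410 and 425), and 2 in pericytes, Acta2 and Synpo2, with 0 in the other classes. DESeq2 called 0 in each. Over the members with more than 3 reads in each library, the log2 changes from P1 to P7 ran from -0.58 (Smtn) to 1.41 (Synpo2) in vascular smooth muscle, from -1.11 (Des) to 1.54 (Actc1) in airway smooth muscle and from -3.88 (Actc1) to 1.33 (Lmod1) in myofibroblasts. They ran from -3.27 (Synpo2) to 1.92 (Actg2) in pericytes, from -2.44 (Des) to 1.13 (Actc1) in alveolar fibroblasts and from -1.36 (Des) to 1.68 (Myh11) in adventitial fibroblasts. From E18.5 to P1 the adventitial range was -2.47 (Cnn1) to 1.08 (Tagln). The test of a difference between myofibroblasts and airway smooth muscle over these days gave 0 of 10, beside 0%, with 3 members at an unadjusted p under 0.05. Without the P1 male, Actc1 of myofibroblasts passed in edgeR's test (adjusted p = 0.00169).

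Hyperoxia at P7 changed no member past the threshold in the 5 classes tested, and 0% of all genes passed in each of them. The cells of the mesenchymal gate, nearly all of the cells, came from different sequencing runs in hyperoxic and normal mice of both sexes, so for them run and treatment cannot be told apart. A few CD31-sorted cells of the male shared a run across treatments. In vascular smooth muscle Acta2 was at 20325 and 18061 CPM in normal and 18834 and 15709 in hyperoxic mice. In airway smooth muscle it was at 8855 and 11280 against 11254 and 9898, in alveolar fibroblasts at 1256 and 1290 against 1762 and 1238, and the groups overlapped in each of these classes. In myofibroblasts Acta2 was at 8427 and 8038 CPM in normal and 9926 and 4063 in hyperoxic mice, and Cnn1 at 206 and 287 against 337 and 59.0, so the hyperoxic female and male stood on opposite sides. Over all 10 members, the log2 changes ran from -1.17 (Synpo2) to 0.76 (Smtn) in vascular smooth muscle, from -0.59 (Myh11) to 0.36 (Tagln) in airway smooth muscle and from -1.25 (Actc1) to 0.80 (Des) in myofibroblasts. In alveolar fibroblasts they ran from -1.39 (Actg2) to 1.58 (Des) over the 7 members with more than 3 reads in each library. The 55 cells labelled male hyperoxic fibroblast, all from the hyperoxic male, were not part of this or any other class tested. In these 4 classes 0 members had an unadjusted p under 0.05 and DESeq2 called 0. The difference between myofibroblasts and airway muscle gave 0 of 10, beside 0%, with 1 member, Des, at an unadjusted p under 0.05 (0.85, SE 0.23, adjusted p = 0.86).

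In adventitial fibroblasts some members were at higher and others at lower levels in the hyperoxic mice, and none passed. Acta2 was at 800 and 1130 CPM in normal and 1799 and 1721 in hyperoxic mice, Actg2 at 3.38 and 15.2 against 173 and 152, and Tagln at 10.8 and 16.4 against 61.9 and 94.5. Cnn1 was at 13.5 and 1.70 against 31.0 and 59.5. Des was at 3.78 and 2.73 against 28.5 and 13.2, Lmod1 at 4.66 and 1.77 against 17.8 and 16.3, and Synpo2 had 0 and 2 reads against 170 and 1192. The hyperoxic mice lay above the normal mice for these genes. They lay below for Myh11, at 81.3 and 216 CPM in normal and 22.2 and 30.8 in hyperoxic mice (log2 change -2.54, SE 1.40, adjusted p = 0.65), and for Smtn, at 108 and 139 against 64.6 and 90.6 (-0.67, SE 0.45, adjusted p = 0.70). Actc1 overlapped. In edgeR's test 0 of 10 members passed (adjusted p = 0.63 for Acta2, Actg2, Tagln, Cnn1, Des and Synpo2), 4 members had an unadjusted p under 0.05 (Acta2, Actg2, Tagln and Des), and DESeq2 called 1, Tagln. A few cells carried the high Actg2. At or above 500 CPM, a cutoff chosen after the values were seen, stood 11 of 226 hyperoxic cells, which is 4.87% with an exact 95% binomial interval of 2.45% to 8.54%, and 2 of 106 normal cells, 1.89% with an interval of 0.229% to 6.65%. These intervals pool the cells of 2 mice per group and cover counting error only, so they do not compare the groups. The 7 cells of the hyperoxic female and the 4 of the male held 96.7% and 91.7% of the Actg2 reads and had 3566 to 30437 CPM of Acta2. Without them Actg2 was at 6.78 and 14.2 CPM over total reads, and Acta2 at 1090 and 1121. The lower Actg2 follows from leaving out cells picked for it. In the normal male the 2 cells held 63.4% of the Actg2 reads. Without them that mouse had 5.40 CPM of Actg2 and 1043 of Acta2. The normal female, with no such cell, had 3.31 and 785.

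Actc1 was detected more often on 1 plate of the hyperoxic male than on the other, and unevenly over the labels of that plate. All 55 cells of the label named male hyperoxic fibroblast came from 1 plate, and all 55 had an Actc1 read, at a median of 19.0 CPM and 23 reads (1.85 to 79.5 CPM). On the same plate 47 of 198 cells of other labels (23.7%; vascular and early airway smooth muscle and striated muscle not counted) had an Actc1 read, against 5 of 254 (1.97%) on the other plate of this mouse. In the hyperoxic female the plates had 5.31% and 3.96%. On the plate of the 55 cells, 10 of 105 early alveolar fibroblasts had an Actc1 read. So did 19 of 49 early adventitial fibroblasts, 12 of 26 myofibroblasts and 0 of 3 proliferating myofibroblasts there. The plate moved with the Actc1 detection in this mouse, and its part in the values of other members was not tested. Actc1 in the male hyperoxic adventitial fibroblasts, 21.5 CPM, includes cells of that plate.

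The striated muscle label was the other place of high Actc1. It held 18 cells, and only the P21 female had enough of them to enter. Its cells had 73628 CPM of 7 genes of heart muscle, all 7 above 10 CPM, and 5927 CPM of the 4 skeletal muscle genes in the table. Within it Des was at 1555 CPM and Synpo2 at 143, both above the medians of the other labels, but pericytes at P21 alone had 197 and 107 CPM of Synpo2. Des was found in 12 of its 16 thinned cells, Synpo2 and Acta2 in 3 each and Myh11 in 1, so its Synpo2 level rests on few cells. After thinning, the median striated cell had 2.5 of the 10 genes.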

How the data were processed

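Single cells of mouse distal lung had been sorted and sequenced in plates with Tn5 transposase, without RNA extraction, per the labels' protocols. The authors deposited whole-number read counts per gene and cell, not normalized. The submitters' processing notes name STAR 2.5.2b, HTSeq 0.10 and the human build GRCh38, with no role given. The annotation, the counting rule and filters on cells are not given in the sources used here, and no doublets were removed here. Each cell's mouse, sex, age, treatment, run, plate and subtype came from the labels.

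Counts were summed per mouse and class (at least 10 cells) and analysed by edgeR 4.0.16 (R 4.3.3) with TMM scaling, filterByExpr and the robust quasi-likelihood test, sex and group as terms, all groups of a class in 1 fit. Early and later labels were joined. Proliferating cells, both precursor labels, the striated muscle label and the 55 cells labelled male hyperoxic fibroblast entered no class. Replicate letters are the sexes of the mice and mark no shared litter, so the sex term serves as the replicate block. DESeq2 1.42.0, other scalings, no filter, no replicate block, equal weight per cell and leaving out each mouse were alternatives. Equal weight per cell used limma 3.58.1 on log2 of the mean CPM of the cells + 1, so the test differs there as well as the weighting. In counts simulated for 3 of the comparisons (pericytes and vascular smooth muscle from P7 to P21, and their difference), all 200 genes changed by 4 on the log2 scale were recovered (100%), among 11770, 12309 and 12394 genes tested, with 11, 8 and 9 wrong calls. The simulation gave all genes the same, capped spread between mice and drew the changed genes from those above the median level. Both settings favour recovery, so it does not show that every change of this size is found in these data. Synpo2 of pericytes, for example, changed by 4.46 from P7 to P21 and did not pass. Smaller changes, such as those called in airway smooth muscle and adventitial fibroblasts, were not simulated. The fits had 2 to 4 residual degrees of freedom.

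By rule all 10 members are counted in every comparison, with values for those the results turn on and the range of the others; the genes of like pattern are the 3 closest to each, among genes with at least 10 CPM in 3 or more libraries. Of the other 28 contractile genes, up to 3 that passed would have been named. The members, lists and tests were chosen with earlier results of these data known. Exon lengths came from GENCODE M21, and promoter sequences from RefSeq, build GRCm38.p6; no genome coordinates of the deposited counts were used.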

Additional observations from a re-analysis of the deposited data

Results flagged for a closer look

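The change from P7 to P21 differed between pericytes and vascular smooth muscle for Acta2 and Actg2, by edgeR's test of that difference with the mouse as a block. For Acta2 the log2 change was lower in pericytes (difference -4.62, SE 0.45, adjusted p = 0.0212, pericytes lower in both sexes). For Actg2 the fitted difference was -13.28 (adjusted p = 0.0111), a value that depends on 0 and 2 reads in the pericytes of P21 and on 1 cell with 99.5% of the reads in the P7 female, and is no bound. Without the P21 female the adjusted p was 0.468 for Acta2 and 0.415 for Actg2, and without the P21 male 0.780 and 0.319. The differences kept their sign in all 4 fits that left out 1 mouse (-5.28 to -3.98 for Acta2 and -15.16 to -12.40 for Actg2).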

How the results depend on the processing

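No direction of a called member reversed. Among values of single called genes, 95 stayed on their side of the threshold and 19 lost the call. With only the 4 mice compared, 1 member passed in airway smooth muscle from P7 to P21 (Actg2), 1 in pericytes (Actg2) and 1 in alveolar fibroblasts (Acta2). DESeq2 also called Synpo2 in pericytes and Myh11 in airway smooth muscle from P7 to P21. It called 2 in alveolar fibroblasts, 4 in adventitial fibroblasts from P7 to P21 and 1 in adventitial fibroblasts in hyperoxia, but it called far more of all genes too: 1163 in place of 174 in airway and 833 in place of 11 in vascular smooth muscle, and 440 in place of 6 in pericytes. Its counts of all genes in alveolar and adventitial fibroblasts are not given here. From P7 to P21 the counts of all genes also moved with no filter (38 in vascular smooth muscle, 43 in pericytes and 54 in place of 24 in adventitial fibroblasts), with only the 4 mice compared (54 in vascular smooth muscle, 82 in airway smooth muscle, 130 in place of 8 in alveolar fibroblasts) and with equal weight per cell (301 in airway smooth muscle, 106 in alveolar fibroblasts). Equal weight per cell and scaling by total reads also called Myh11 in airway smooth muscle. Equal weight per cell gave 1 in alveolar and 2 in adventitial fibroblasts from P7 to P21. Leaving out 1 mouse gave 1 to 3 members in airway smooth muscle, 0 to 2 in pericytes, 0 to 1 in adventitial and 0 to 2 in alveolar fibroblasts from P7 to P21, 0 to 1 in myofibroblasts from P1 to P7 and 0 to 3 for the pericyte and vascular difference. Without the replicate block (sex), the same number of members passed in each comparison, with Acta2 of airway muscle at -1.51 and of pericytes at -4.92. Scaling by total reads moved the median of all genes in airway muscle from -0.09 to -0.44 and Acta2 to -1.86. Equal weight per cell, by limma on log2(CPM + 1), took Actg2 of pericytes from -13.49 to -7.12 (adjusted p = 0.0298). The weighting and the added 1 both enter this difference. Counting a gene only from 10 reads in a thinned cell lowered the median per vascular cell from 7 to 6. The causes were not tested, apart from fewer samples or cells where the setting itself removes them. A level of a few reads, such as Cnn1 in pericytes, is at the limit of the depth.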
